A study of Rattus with 18 samples.

Results

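Inflammatory genes were followed in infarcted rat hearts, 6 in number: the cytokine genes Il1b and Il6, the chemokine genes Cxcl1 and Cxcl10, Nos2, which encodes the inducible nitric oxide synthase, and Junb, which encodes a subunit of the AP-1 transcription factor. They were chosen by their symbols in the authors' deposited day 3 table, which holds a gene only if its unadjusted p for iECM against control was small, so their values below describe that table and test nothing. The 6 genes are 6 of the 23 listed for day 3, out of 374 tested.

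The RNA was taken from infarcted free wall of the left ventricle, in Sprague-Dawley rats that had a 35 min infarction. By the agent and time point labels there were 4 control and 5 iECM hearts at day 1, and 4 control and 5 iECM hearts at day 3, where iECM is an extracellular matrix preparation given by infusion. The treatment text is the same for each of the 18 samples and names iECM, also for the 8 whose agent label is control, so every direction below rests on the agent label, and what the control hearts were given is not stated. Each sample is called a heart here, although the labels do not say that they are separate animals, and age and sex are not given in the sources used here.

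After an infarct, dying muscle cells release molecules that resident and arriving immune cells sense through Toll-like and related receptors. NF-kB and AP-1 then switch on a shared set of genes, among them interleukin-1 beta and interleukin-6, which amplify the response, and CXC chemokines, which draw neutrophils, monocytes and T cells into the tissue. Nos2 is induced by the same signals in macrophages and other cells and makes nitric oxide from arginine. In whole-tissue RNA, fewer cells that express a gene and less of its RNA per cell cannot be told apart.

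Each of the 6 genes had a negative deposited fold change, read as lower with iECM than in control hearts at day 3. Neither log base nor direction is given in the deposited header, so both were read from the counts in a later paragraph. Of the 374 genes, 6.15% were listed for day 3 and 2.14% were listed with a negative value, and nothing is read from these shares because listing chose the genes. The 6 made up 6 of the 8 negative entries, the others being Slc2a1, a glucose transporter gene, and Thbs1, a matrix glycoprotein gene. No member was among the 15 positive entries. The median was -0.51 over the 6 genes and 0.45 over the 17 others in the authors' deposited table, on the log2 scale. The 6 were grouped with these results known, so their shared sign and the gap between the medians are no finding. Listed genes of immune lists outside the group were positive, namely Foxp3 at 1.04, Mmp8 at 1.09, Lrg1 at 0.34 and Lifr at 0.30.

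Nos2 had the lowest value of the day 3 list, -0.99 on the log2 scale in the authors' deposited table. Read as log2 of iECM over control this is a ratio of 0.503, or 49.7% less Nos2 RNA in the iECM hearts, and with the direction turned it would be a ratio of 1.99, a higher level in them. It was also the member with the largest lr score, the authors' test statistic, at 13.5 with p = 2.34e-04 and q = 0.0437 in the authors' deposited table. Nos2 was thus the 1 member that passed a q of 0.05, a threshold passed by 2 of 374 genes, or 0.535%. The other gene that passed was Cpt1a, which encodes the enzyme that admits long-chain fatty acids to mitochondria, and it was higher, at 0.52 in the authors' deposited table. In the fits of unnamed rows given below, none with all hearts called a row lower with iECM at day 3 at an adjusted p of 0.05. The q of Nos2 was thus not reproduced in those fits, and the authors' tool and scaling are not known.

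The interleukins stood at different places in the list. Il6, whose product drives the acute-phase response, stood at -0.79 in the authors' deposited table, a ratio of 0.580, with lr = 5.84, p = 0.0156 and q = 0.531. Il1b, whose product is the fever-inducing cytokine released by inflammasome activity, stood at -0.38 in the authors' deposited table, a ratio of 0.767, with lr = 8.33, p = 0.00390 and q = 0.182. Il6 had the larger fold change of the pair and Il1b the larger lr score. Neither passed a q of 0.05.

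The chemokines had intermediate values. Cxcl10, which attracts CXCR3-bearing T cells and is induced by interferon, stood at -0.56 in the authors' deposited table, a ratio of 0.679, with lr = 4.94, p = 0.0263 and q = 0.615. Cxcl1, a neutrophil attractant, stood at -0.47 in the authors' deposited table, a ratio of 0.724, with lr = 3.98, p = 0.0460 and q = 0.646. Neither passed a q of 0.05. Cxcl1 was the member nearest to the limit of the list, whose largest p was 0.0486, that of Thbs1, and genes beyond that limit were not analysed here.

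Junb had the smallest fold change of the 6 genes, -0.34 in the authors' deposited table, which is a ratio of 0.788. Its lr score was 8.44, with p = 0.00368 and q = 0.182 in the authors' deposited table, so it ranked second among the members by p and last by size. Among all 23 entries the members took ranks 2, 7, 8, 11, 16 and 20 by p, for Nos2, Junb, Il1b, Il6, Cxcl10 and Cxcl1. Ranked from the most negative fold change, Nos2, Il6, Cxcl10 and Cxcl1 held ranks 1 to 4, and Il1b and Junb held ranks 6 and 7, with Slc2a1 between Cxcl1 and Il1b.

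**Figure D1:**
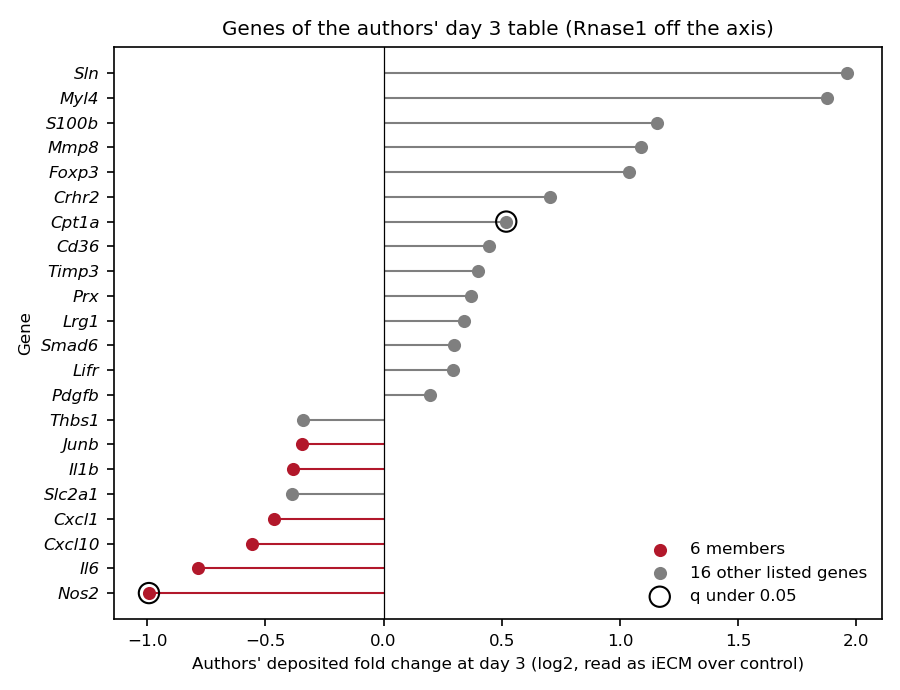
Deposited fold change at day 3 of 22 listed genes (horizontal axis, log2, read as iECM over control), with the 6 members in red, the other genes in grey and a ring around values with a q under 0.05. Members lie between -0.99 and -0.34, and Rnase1, listed at 25.9, is off the axis.

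The related genes that were looked for gave few further entries. Which of them the panel measured is not known, since the table holds small p-values only. Of 15 ligands and receptors of the TNF, IL-1 and IL-6 families, 3 were listed at day 3, and besides Il1b and Il6 this was Lifr, the receptor subunit for leukemia inhibitory factor, at 0.30 in the authors' deposited table. Of 18 chemokines and chemokine receptors 2 were listed, of 12 AP-1 subunits and feedback regulators 1, of 6 genes of nitric oxide and arginine metabolism 1, and of 10 interferon response genes 1, and these entries are members. Of 10 repair macrophage and regulatory genes 1 was listed, Foxp3, which specifies regulatory T cells, at 1.04 (q = 0.408 by the authors' deposited table). Nos2 was the 1 entry of these lists with a q under 0.05.

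Entries of cell type marker lists stood beside these values. Of 7 neutrophil markers, Mmp8, a neutrophil collagenase, stood at 1.09 and Lrg1 at 0.34 in the authors' deposited table, both positive where the neutrophil attractant Cxcl1 was negative. None of 6 macrophage, 5 endothelial, 5 fibroblast or 6 ventricular muscle markers was listed, which does not say that they were measured. Of 4 atrial muscle markers, Sln stood at 1.96 and Myl4 at 1.87, and of 5 glial markers, S100b stood at 1.16 and Prx at 0.37 in the authors' deposited table. The part that the cell makeup of the samples had in the members' values was not tested, and the labelled tissue could not be checked against its markers because the value table carries no gene names.

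At day 1 the authors' deposited table listed 11 of 374 genes, or 2.94%, and none of the 6 members. A gene that is not listed may still have differed by any amount with a p above the limit, and the difference between the days was not tested for any member. No gene of the 6 related lists was in the day 1 table. The cytokine gene Il23a, which is in none of these lists and was picked out after its values were seen, was there at 1.82, with p = 0.0298 and q = 0.989 by the authors' deposited table. Il23a encodes a subunit of interleukin-23.

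The direction was read by pairing the deposited values with the unnamed rows of the value table under 4 readings, log2 or natural log and either agent on top. Each deposited value was paired with a different row so that the total distance was smallest. Small gaps are thus partly built in, and none is a gene's own difference. Pairing was used otherwise only for a mean gap quoted below, and no row was given a gene name. With edgeR fold changes and likelihood ratios, the mean distance at day 3 was 0.368 when read as log2 with iECM on top and 0.447 with control on top, and 0.455 and 0.514 for the natural log readings. The median distance was 0.240 and 0.209 for the log2 readings, in the opposite order. A likelihood ratio model was then fitted with the negative-control count of each heart as background and with scaling on the 6 rows after the negative controls. Under it the mean gap in log2 fold change alone was 0.0103 with iECM on top and 0.0839 with control on top, over 22 genes without Rnase1. The median gap was 0.00497 and 0.00811, and the largest gap was 0.0884 and 0.725. At day 1 the mean gap was 0.0103 and 0.0737, while the median gap, 0.0104 and 0.00352, was smaller with control on top. Read as natural log, the mean gap at day 3 was 0.0663 with iECM on top and 0.0860 with control on top. At day 1 the natural log means were 0.102 and 0.0455, and the medians 0.0488 and 0.00567. With the lr score joined to the log2 fold change in that model, the mean distance at day 3 was 0.186 with iECM on top and 0.377 with control on top. Its median was 0.166 and 0.181. At day 1 the joint means were 0.183 and 0.484, and the joint medians 0.168 and 0.252. The direction therefore rests on the means, on the entries with the widest gaps and on these joint medians, while the other medians went both ways. It is an inference, not a statement of the deposited files.

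The count of each member in each heart cannot be given for the same lack of names, so the deposited values were set against the spread of all rows. Gene rows summed to between 816397 and 1687688 counts per heart. In edgeR's quasi-likelihood fit of the deposited counts, the median day 3 fold change of 371 rows was -0.04 on the log2 scale, the quartiles were -0.16 and 0.09, and the median standard error was 0.18. No row of 371 was called at an adjusted p of 0.05 by edgeR, or 0%, and 11 had an unadjusted p under 0.05, of which 8 were lower with iECM, between -0.64 and -0.21. That majority turned with scaling and model. Of such rows, 1 of 4 was lower with library totals, 3 of 6 with DESeq2 size factors, 3 of 8 in DESeq2, 6 of 12 with day 3 alone and 9 of 23 in the model with a background term. It was 7 of 9 in limma and 7 of 10 with no filter. The lowest edgeR adjusted p was 0.901. DESeq2 and limma also called 0 rows. Of the 371 rows, 32 were at background in each heart. The 371 also include the 6 rows after the negative controls, on which the model with a background term was scaled. The edgeR row at -0.21 was among those 6.

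On the reading as iECM over control, the members' deposited values lay in the lower tail of the fitted rows. That place was favoured in advance, since the members were listed by a small p and grouped with their signs known. It is therefore no finding about the members. Counted among the 371 edgeR fold changes, 20 rows, or 5.39%, were at or below the deposited value of Junb, 15 rows, or 4.04%, at or below that of Il1b, 6 at or below that of Cxcl1, and 3 at or below that of Cxcl10. Among the edgeR fold changes no row was as low as the deposited values of Il6 or Nos2, since the lowest row stood at -0.75. Deposited and edgeR fold changes are unlike measures. In the closest pairing with iECM on top, the mean gap from deposited values to rows was 0.109 in edgeR's likelihood ratio fit. It was 0.0103 in the model with a background term. Both are gaps to rows picked for closeness, not to the genes' own rows. The members' own rows may also be among those counted. The edgeR counts therefore do not place Il6 or Nos2 beyond all measured rows. With the direction turned, the rows at or above the same size numbered 19 for Junb, 15 for Il1b, 9 for Cxcl1, 5 for Cxcl10, 2 for Il6 and 2 for Nos2. In the model with a background term, the 333 rows above background had a median of 0.05 and a lowest value of -1.0, and rows at background, which reached lower, were left out. The counts over the 333 rows were 14 for Junb, 11 for Il1b, 7 for Cxcl1, 5 for Cxcl10, 2 for Il6 and 1 for Nos2. With the direction turned they were 43 for Junb, 31 for Il1b, 22 for Cxcl1, 15 for Cxcl10, 9 for Il6 and 5 for Nos2.

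The edgeR counts at or below a deposited value moved with single hearts. Without day 3 iECM replicate 4, 37 rows were at or below the value of Junb, 30 at or below that of Il1b, 17 for Cxcl1, 9 for Cxcl10 and 2 for Il6. Without day 3 control replicate 1 the counts were 31 for Junb, 15 for Cxcl1, 9 for Cxcl10 and 2 for Il6. The count was 11 for Cxcl1 and 5 for Cxcl10 without iECM replicate 2, 12 for Cxcl1 without control replicate 4, and 24 for Il1b without control replicate 3. Leaving out iECM replicate 1, 2 or 5 or control replicate 2, 3 or 4 gave 1 row at or below the value of Il6. For Nos2 the count was 0 without each of the 9 hearts in turn. Only the rows were refitted, and the members' values stayed as deposited. These counts therefore do not show how the fold change of Nos2 or another member depends on a single heart.

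**Figure D2:**
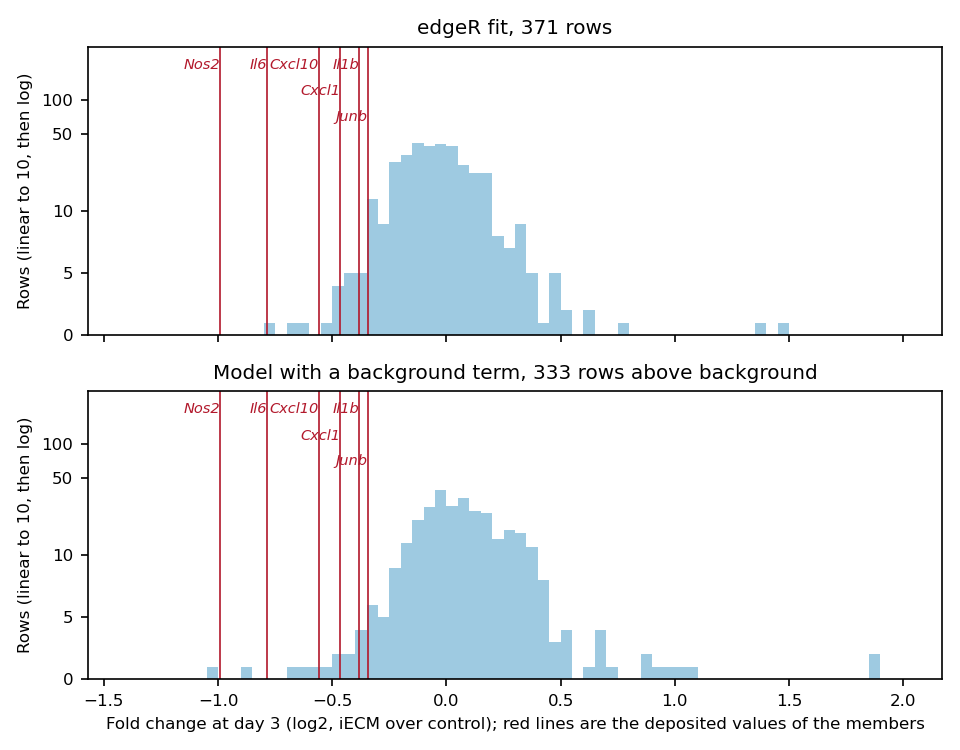
Fold changes at day 3 (horizontal axis, log2, iECM over control) of 371 unnamed rows in the edgeR fit (top) and of 333 rows above background in the model with a background term (bottom), as numbers of rows per bin on an axis that is linear to 10 and logarithmic above, with the deposited values of the 6 members as red lines. In the top panel the lowest row, at -0.75, shares a bin with the line for Il6 but lies above its value of -0.79, and 1 row lies outside the plotted range in the bottom panel.

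The KEGG terms deposited for the day 3 genes were read next, to see which pathways the 6 genes carried. They were tested by the authors on the same 23 genes, so they are no evidence apart from the list. The background was 9373 annotated genes, and 17962 for the gene ontology terms below, not the 374 tested. The adjusted p-values of terms therefore do not set the listed genes apart from the rest of the panel. Of 38 terms 31 held at least 1 member, and 21 held members and no other gene. Il6 was in 29 terms, Il1b in 25, Cxcl1 in 10, Cxcl10 in 7, Nos2 in 6 and Junb in 1. Each of the 31 terms with a member held Il1b or Il6, and 23 held both, which is 92.0% of the terms of Il1b and 79.3% of those of Il6.

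Signalling and infection terms alternated at the top of the table. The TNF signaling pathway held 5 members, all but Nos2, and no other gene, and its adjusted p, 1.49e-04 in the authors' deposited table, was the lowest of the 38. Malaria came second, with Il1b, Il6 and Thbs1 negative and Cd36 positive, at 2.24e-04 in the authors' deposited table. IL-17 signaling held both interleukins and both chemokines, at 7.55e-04 in the authors' deposited table. Cytosolic DNA sensing and Toll-like receptor signaling held Il1b, Il6 and Cxcl10, at 0.00210 and 0.00503, and NOD-like receptor signaling held Il1b, Il6 and Cxcl1, at 0.0184 in the authors' deposited table. NF-kappa B signaling held 2 members, Il1b and Cxcl1, at 0.0433 in the authors' deposited table.

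Nos2 appeared mainly in infection terms. The authors' deposited table placed it in Amoebiasis with Il1b, Il6 and Cxcl1, at an adjusted p of 8.07e-04, and in Pertussis, Chagas disease and Tuberculosis with Il1b and Il6. It was in Leishmaniasis with Il1b, and HIF-1 signaling held it with Il6 and Slc2a1 at 0.00692 in the authors' deposited table. Nos2 and Cxcl10 shared no KEGG term, nor did Nos2 and Junb.

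Direction was then added to each term from the deposited fold changes. In 22 of 38 KEGG terms every listed gene had a negative value, in 1 every gene had a positive value, and 15 held both signs. Those 22 were the 21 terms of members alone and HIF-1 signaling, in which Slc2a1 stood at -0.39 in the authors' deposited table. Mixed terms included Insulin resistance, in which Il6 and Slc2a1 were negative and Cd36 and Cpt1a positive, and JAK-STAT signaling, in which Il6 was negative and Lifr and Pdgfb positive. Th17 cell differentiation and the inflammatory bowel disease term each held Il1b and Il6 with negative values and Foxp3 with a positive one.

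**Figure D3:**
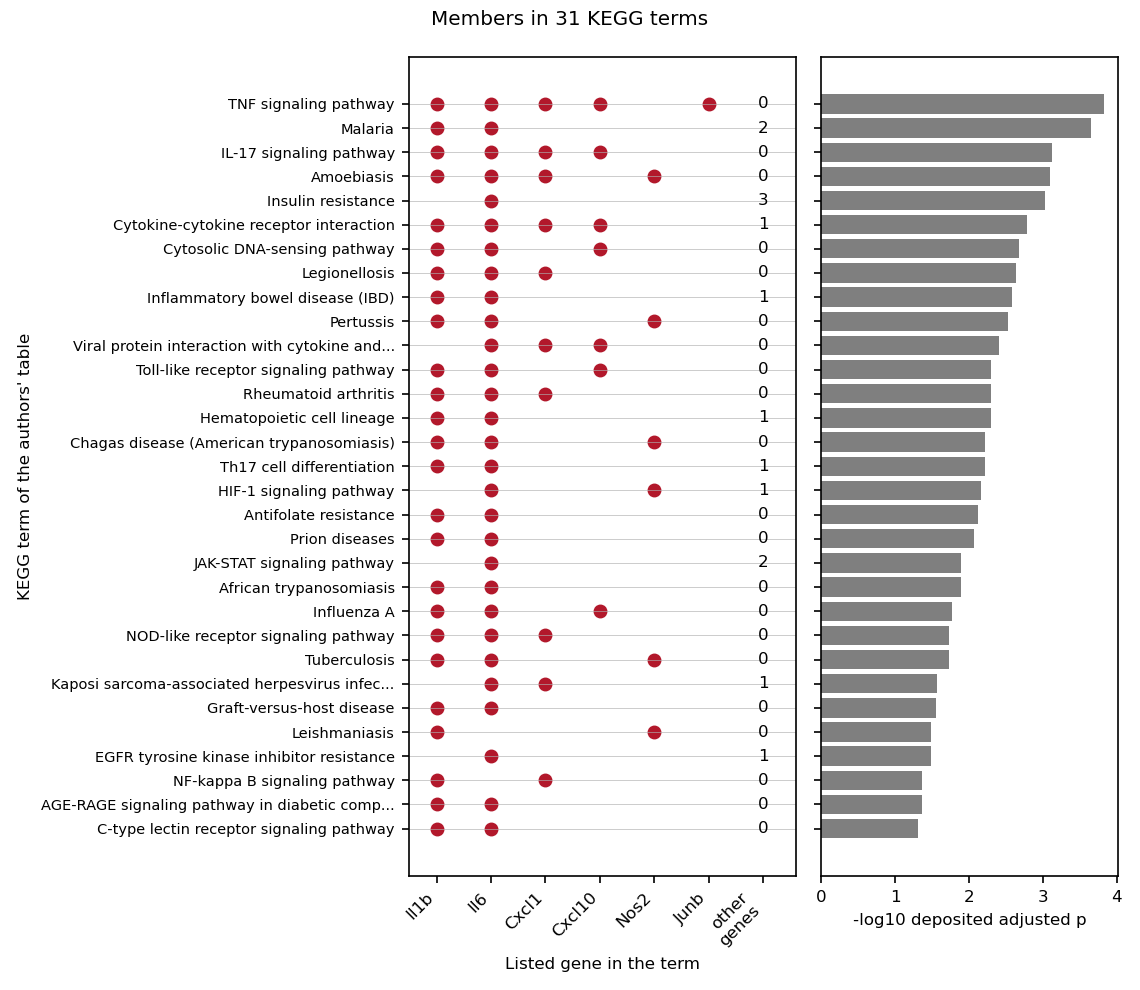
The 31 deposited KEGG terms with at least 1 member (vertical axis), with a red dot for each member in the term and the number of other listed genes (left) and the deposited adjusted p as -log10 (right). Il1b or Il6 is in each of the 31 terms, and 21 terms hold no gene other than members.

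The gene ontology table showed a wider set of processes with the same pair at its centre. Of 707 biological process terms, 520, or 73.6%, held at least 1 member, and 460 held Il1b or Il6. Il1b was in 356 terms, Il6 in 278, Nos2 in 91, Cxcl10 in 66, Cxcl1 in 55 and Junb in 15. Among the other listed genes Cd36, a fatty acid transporter gene, was in 186 terms, Thbs1 in 180, Pdgfb in 156 and Foxp3 in 145. How often a gene appears also depends on how fully it is annotated, and that part was not tested.

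Pairs of members shared terms to different degrees. Il1b and Il6 shared 174 terms, which is 48.9% of the terms of Il1b and 62.6% of those of Il6. Nos2 shared 59 terms with Il1b and 40 with Il6, which are 64.8% and 44.0% of its own terms. The chemokines shared 28 terms, which is 50.9% of the terms of Cxcl1 and 42.4% of those of Cxcl10. Il6 and Cxcl10 shared 13 terms, and Junb shared at most 7 with any member.

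**Figure D4:**
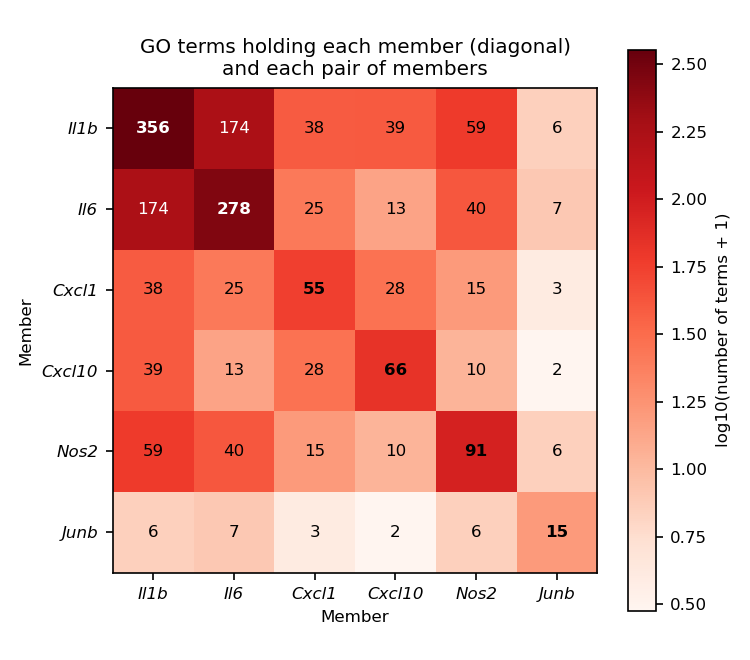
Number of deposited gene ontology terms that hold each member (diagonal) and each pair of members (other cells), with darker red for more terms on a log10 scale. Il1b, with 356 terms, and Il6, with 278, share 174.

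A single term, the response to lipopolysaccharide, held all 6 members. It also held Cd36 and Smad6, an inhibitor of bone morphogenetic protein signalling, with positive values, with an adjusted p, from the authors' deposited table, of 1.72e-05. The response to mechanical stimulus held 10 genes and had the lowest adjusted p of the 707 terms, 5.67e-09 in the authors' deposited table. In it the 5 members other than Cxcl1, with Slc2a1 and Thbs1, were negative, and Cd36, Pdgfb and Timp3 were positive. The response to glucocorticoid held the 5 members other than Cxcl10, with Crhr2 and S100b positive, at 1.39e-05 in the authors' deposited table. Of 15 terms with 4 or more members, 3 held no gene with a positive value, namely the responses to heat, to temperature and to ketone.

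Terms on the products of these genes had both signs. Nitric oxide biosynthesis held Nos2, Il1b and Il6 with negative values and Cd36 and Mmp8 with positive ones, at 1.39e-05 in the authors' deposited table. Interleukin-6 production held the same 3 members beside Cd36, Crhr2, Foxp3 and Mmp8, each of these 4 positive, at 7.81e-07 in the authors' deposited table. Reactive oxygen species metabolism held 5 negative genes, namely Nos2, Il1b, Il6, Cxcl1 and Thbs1, and 3 positive ones, at 8.38e-07 in the authors' deposited table. A term name therefore gives no direction here.

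Terms on leukocyte movement and acute inflammation had mostly negative entries. Most of these entries were members, whose values are all negative, so the signs restate the members' values. Neutrophil chemotaxis held Cxcl1, Cxcl10 and Il1b alone, at 0.00296 in the authors' deposited table. Granulocyte chemotaxis added Thbs1, also negative, at 4.83e-04, and leukocyte chemotaxis added Pdgfb, which was positive, at 2.48e-04 in the authors' deposited table. Acute inflammatory response held Cxcl1, Il1b and Il6 at 0.00503, and acute-phase response held Il1b and Il6 at 0.0110 in the authors' deposited table.

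**Figure D5:**
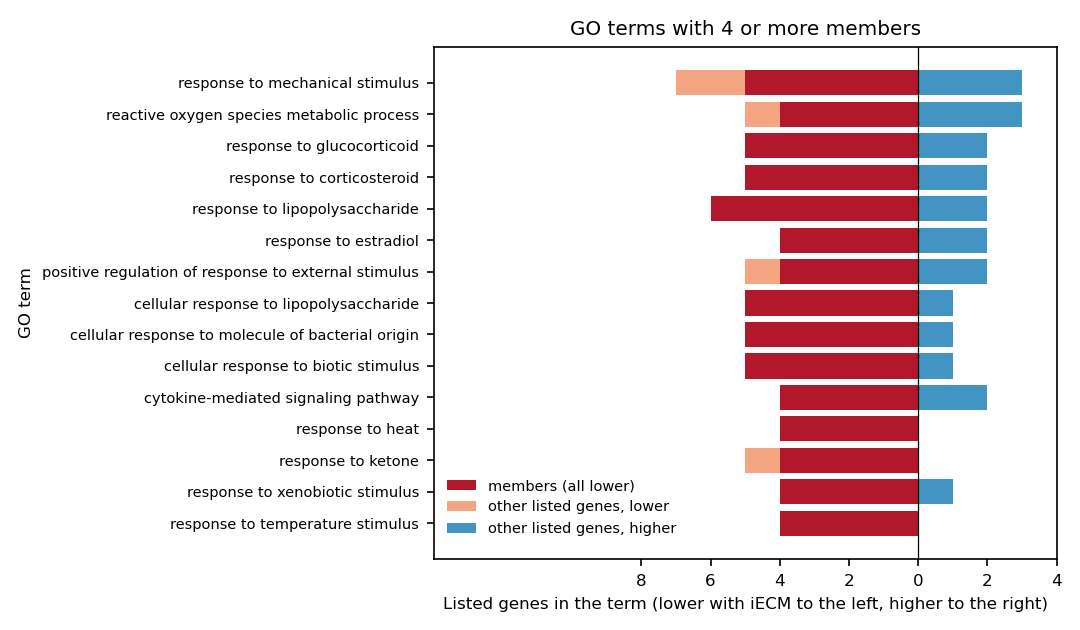
Listed genes in each of the 15 gene ontology terms with 4 or more members (vertical axis), counted to the left when their deposited value is negative (members in red, other genes in orange) and to the right when it is positive (blue). All 6 members are in the response to lipopolysaccharide, and 3 of the 15 terms have no gene to the right.

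Over the whole ontology table the signs were mixed more often than not. Of 573 terms with 2 or more listed genes, 97 held negative values alone, 35 held positive values alone and 441 held both. A further 134 terms held 1 listed gene, 25 of them Il1b and 20 Il6. Nos2 was the lone gene of 5 terms, among them arginine catabolism and protein nitrosylation, at adjusted p-values of 0.0451 and 0.0475 in the authors' deposited table. Cxcl10 was alone in endothelial cell activation, at 0.0451, and Cxcl1 in neutrophil-mediated cytotoxicity, at 0.0462 in the authors' deposited table. The terms were set against 17962 annotated genes and the KEGG terms against 9373, where 374 could have been listed on this panel.

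In the RefSeq annotation of the rat assembly GRCr8, Il1b lies next to Il1a, Cxcl1 next to Cxcl2, and Cxcl10 between Cxcl11 and Cxcl9. These neighbours encode related cytokines and chemokines, and none of them was in the day 3 table. None of the 3 nearest protein-coding genes on either side of any member was in that table.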

How the data were processed

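RNA from 18 hearts was hybridized to a NanoString CodeSet, 50 to 100 ng per sample, per the labels' protocols. The deposited value table holds raw counts, whole numbers whose totals differ between samples, for 394 rows without gene names. From the values, 6 rows were read as positive and 8 as negative controls, which left 380 gene rows. The 6 rows after the negative controls were counted among these 380, and the model with a background term used them for scaling alone. The authors' deposited tables give a log2 fold change (base and direction inferred), then for each gene an lr score with its p-value and q-value, and p-values and gene counts per KEGG and gene ontology term. The sources used here do not give their tool or scaling. The lr scores give the deposited p-values by chi-square with 1 degree of freedom for all 23 genes, and the q-values correspond to 374 tests.

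The rows were fitted with edgeR 4.0.16 (filterByExpr with a minimum count of 10, TMM, quasi-likelihood test, 4 group means, Benjamini-Hochberg adjustment at 0.05). DESeq2 1.42.0, limma 3.58.1, other scalings and each heart left out were alternatives. The fits were tested on simulated data. A row at or below the negative-control mean plus 2 SD in each heart counts as background. KEGG identifiers, 15 of 15, were named through RefSeq. The members and lists were chosen with earlier results of these data known, and the genes named are the members, listed genes of the fixed lists, and genes that share a KEGG term with a member, with a few more from the ontology terms and from the neighbours of the members, chosen after seeing the values. Since the labels do not call the samples separate animals, p-values cover only the spread among samples, which may be technical.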

Additional observations from a re-analysis of the deposited data

How the results depend on the processing

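The model with a background term was chosen after seeing the data. The count of 0 called rows was the same at day 3 and at day 1 under DESeq2, limma, no filter, library totals, DESeq2 size factors, fits of 1 day alone and each heart left out in edgeR. The model with a background term called 1 row at day 3 and 1 at day 1. The day 3 row was higher with iECM, at 0.508 on the log2 scale, and the day 1 row was lower, at -0.632. With all hearts, no row lower with iECM was thus called at day 3 in any fit. With each heart left out it called between 0 and 4 rows at day 3 and between 0 and 3 at day 1. Its rows at an unadjusted p under 0.05 at day 3 numbered 23, and between 20 and 60 with a heart left out, and in edgeR they numbered 11, and between 3 and 25 with a heart left out, 25 without iECM replicate 4 and 3 without iECM replicate 1 or 5. The cause was not tested. With each heart left out in edgeR, the rows at or below an unchanged deposited value numbered 0 to 2 for Il6. They numbered 11 to 30 for Il1b, 4 to 17 for Cxcl1 and 2 to 9 for Cxcl10. For Nos2 they numbered 0, and for Junb 15 to 37. With DESeq2 size factors they numbered 8 for Il1b and 13 for Junb. With the background term they numbered 2 for Il6, 5 for Cxcl10 and 1 for Nos2. At day 3, log2 of iECM over control had the smallest mean distance of the 4 readings with either model, with and without the lr score, by margins of 0.0560 to 0.120. At day 1 the edgeR fold change alone put the reverse ahead, with a margin of -0.0117. No paired analysis was possible because replicate numbers here follow accession order and pair nothing. The promoter motif search was not run, as no sequence table was at hand. Depth and names limit these data: 41 rows were at background in each heart, and no count could be given for a member.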
